A study of Homo sapiens with 27 samples.

Results

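In 3 human colorectal cancer cell lines, 71 genes read lower in cells that had survived repeated attack by natural killer (NK) cells and cetuximab than in the untreated line. A gene was taken into the set when the mean of the 3 Resistant arrays lay 0.4 or more below the mean of the 3 Parental arrays on the log2 scale in each of LIM1215, SW48 and Caco2, and when its Parental mean was 7 or more in each line. Of 17687 named genes on the array, 7520 reached that Parental level in all lines, and 71 of these met the whole rule. The members were chosen by the group means of the Resistant and Parental arrays, whose differences are therefore given below as a description, with no test. What the choice did not use is the level after withdrawal.

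Each line was measured in 3 states with 3 arrays per state, 27 arrays in all, which carried biotin-labelled cDNA made from total RNA. Withdrawal cells are resistant cells that were kept for a further 20 cycles with no treatment. Resistant cells had outlived 20 cycles of exposure to NK-CD16 cells, NK cells named for the antibody receptor CD16, together with 1 ug/ml of cetuximab, the antibody against the receptor EGFR. Parental cells are the untreated line, which the labels describe as grown from a single clone, so each line stands for 1 clone and 1 course of selection. LIM1215 medium held hydrocortisone and insulin, which the labels do not list for the other lines, and Caco2 had another base medium with more serum. Whether the 3 arrays of a state come from separate cultures is not stated, so p-values here measure the spread between these samples, which may be technical.

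NK cells kill antibody-coated tumour cells when CD16 binds the antibody, and they also read ligands on the target such as the MIC and ULBP proteins, which engage the activating receptor NKG2D. Cetuximab blocks EGFR, whose signal runs through RAS, RAF, MEK and ERK and is commonly read from feedback genes such as the DUSP and SPRED families and from ETV transcription factors. ATF4 is the transcription factor that cells use when amino acids run short or the endoplasmic reticulum is stressed, and it raises amino acid transporters, amino acid synthesis and tRNA charging.

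All 71 members code for proteins, they lie on 21 chromosomes, and 3 of them are on the X chromosome. Resistant minus Parental differences had a median of -0.56 in LIM1215 (range -3.11 to -0.40), -0.82 in SW48 (range -2.95 to -0.42) and -0.92 in Caco2 (range -4.45 to -0.40). Among the 7520 genes that reached the Parental level, 727 were lower by 0.4 or more in LIM1215 (9.67%), 1657 in SW48 (22.0%) and 1764 in Caco2 (23.5%), so LIM1215 was the line that limited the set. The same rule turned to genes that read higher gave 67 genes. The members just inside the threshold were ZFAND5, DAAM1 and CDR2, whose smallest differences were -0.411, -0.4048 and -0.4042, and the genes just outside it were ARMCX6, L3MBTL3 and SAMD4A with -0.3996, -0.3963 and -0.3945. ZNF692 had the lowest Parental mean among the members (7.05), and ATXN1, left out on that count alone, had 6.87.

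One array stood apart. LIM1215 Parental replicate 3 correlated with the other LIM1215 Parental arrays at 0.987 over all named genes, while every other pair of replicates reached at least 0.99465. It read above both other LIM1215 Parental arrays in 42 members and below both in 23, and its difference from their mean had a median of 0.29 over the members against -0.03 over all genes. Without it the rule chose 72 genes, of which 46 were among the 71. The 25 members that then dropped out included all 7 members of amino acid supply and the ATF4 response, the NKG2D ligand gene ULBP1 and the transcription regulators LMO4 and PRDM1. For CHAC1 the LIM1215 Resistant minus Parental difference was -0.55 with that array and 0.40 without it, and for ULBP1 it was -0.46 with it and 0.83 without it. Called differences from LIM1215 Parental cells are therefore given with and without this array, and counts also for the 46 members that do not depend on it.

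**Figure D1:**
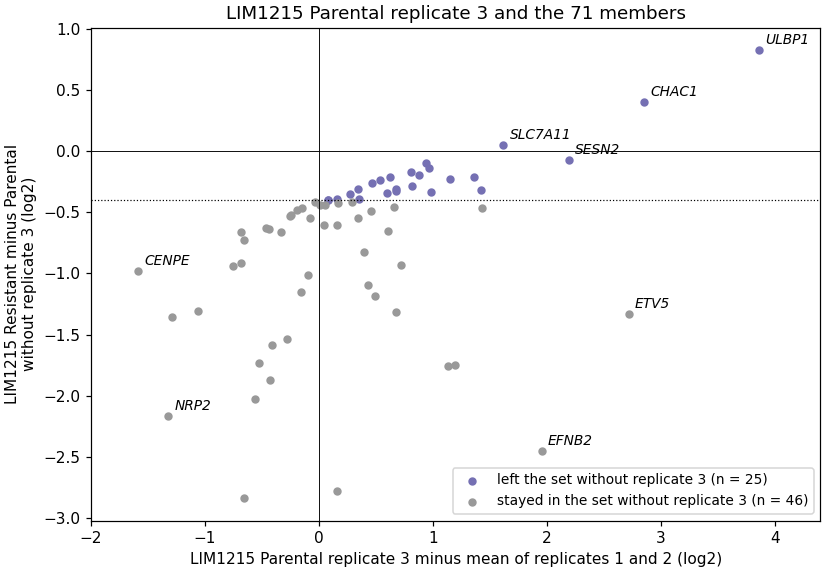
Each point is a member. The horizontal axis gives the log2 level of LIM1215 Parental replicate 3 minus the mean of replicates 1 and 2, and the vertical axis gives LIM1215 Resistant minus Parental without replicate 3, with the threshold dotted; the 25 members that left the set lie above the dotted line and right of 0, with ULBP1, CHAC1, SESN2 and SLC7A11 the farthest out.

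Transcripts of NK cells were present in the Resistant arrays. Of 21 measured NK marker genes, those above the negative controls numbered 0 in LIM1215 Withdrawal, 10 in Resistant and 0 in Parental cells, 1, 3 and 1 in SW48, and 0, 8 and 0 in Caco2, in the same order of states. Summed over the 21 genes, the log2 level ran from 82.3 to 84.0 in LIM1215 Withdrawal, from 148 to 155 in Resistant and from 82.8 to 84.5 in Parental arrays, and the Resistant arrays were likewise apart in SW48 (66.1 to 70.1 in Withdrawal, 94.8 to 102 in Resistant and 65.3 to 67.9 in Parental) and in Caco2 (71.8 to 75.2, 132 to 138 and 73.6 to 77.8). In bulk RNA, fewer cells of a type and less RNA per cell cannot be told apart, and the part of NK cell RNA in the lower readings of the members was not tested. Of 14 measured markers of colorectal epithelium, 14 were above the negative controls in every state of LIM1215 and 9 in every state of Caco2. In SW48, 6 were above them in Withdrawal, 6 in Resistant and 7 in Parental cells, and CDX1, VIL1, LGALS4, CDH17, GPA33, ELF3 and TSPAN8 were below them in Parental cells of that line.

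The 6 members with the deepest difference common to the lines were EFNB2, PDE4D, GXYLT2, ETV5, MATCAP2 and SIPA1L2, ranked by the smallest of their 3 Resistant minus Parental differences in deposited values. The rank of GXYLT2 rests on Caco2 and that of SIPA1L2 on LIM1215, where the Resistant mean was within the range of the negative controls, so these ranks are not firm. Of 5 among them with a promoter in the RefSeq table of GRCh38.p14, 3 matched TGANTCA, a loose form of the AP-1 motif. The AP-1 site, bound by FOS and JUN dimers, usually has C or G at its middle base. The matches of PDE4D and MATCAP2 (TGAGTCA) had it, and that of GXYLT2 (TGAATCA) did not. The loose form was found in 6 of the 60 members with a promoter in that table (10.0%) and 5.75% of all 14250 promoters. The window runs from 250 bases before to 50 bases after the annotated start, both strands were searched, and a match describes letters and no binding. The stretches around these matches are shown because they hold the same loose form in members that read low together, with the match in capitals.
PDE4D, chr5:60496354-60496460, minus strand: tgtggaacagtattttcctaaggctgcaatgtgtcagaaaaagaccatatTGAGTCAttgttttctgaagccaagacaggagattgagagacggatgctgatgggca
GXYLT2, chr3:72887796-72887875, plus strand: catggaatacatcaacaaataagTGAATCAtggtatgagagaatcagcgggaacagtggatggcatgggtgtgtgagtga
MATCAP2, chr7:36390380-36390486, minus strand: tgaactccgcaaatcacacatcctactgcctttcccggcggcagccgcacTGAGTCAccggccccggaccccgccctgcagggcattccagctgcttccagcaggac

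EFNB2 codes for ephrin-B2, a transmembrane ligand that signals to Eph receptors on neighbouring cells. In LIM1215 it read 13.32, 13.16 and 13.25 in Withdrawal arrays, 8.05, 8.08 and 7.58 in Resistant arrays and 10.28, 10.44 and 12.32 in Parental arrays. In SW48 the readings were 11.98, 12.31 and 12.27 in Withdrawal, 9.96, 10.31 and 9.65 in Resistant and 12.91, 12.76 and 12.83 in Parental cells. In Caco2 they were 11.33, 11.30 and 11.18 in Withdrawal, 9.74, 9.88 and 9.66 in Resistant and 11.74, 11.86 and 11.84 in Parental cells. The 3 states did not overlap in any line, and the Withdrawal arrays were the highest in LIM1215 but lay between the other states in SW48 and Caco2. Resistant cells read 8.61-fold lower than Parental cells in LIM1215, 7.26-fold lower in SW48 and 4.15-fold lower in Caco2. Withdrawal minus Parental was 2.23 in LIM1215 (SE 0.31, adjusted p 2.79e-05; 2.88 without Parental replicate 3), -0.65 in SW48 and -0.54 in Caco2, with no call in SW48 and Caco2.

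PDE4D codes for a phosphodiesterase that breaks down cyclic AMP. LIM1215 readings were 10.10, 10.37 and 10.10 in Withdrawal, 8.88, 8.73 and 8.58 in Resistant and 10.76, 10.76 and 10.20 in Parental cells. SW48 readings were 9.96, 10.54 and 10.23 in Withdrawal, 6.27, 4.86 and 5.58 in Resistant and 8.85, 7.90 and 8.32 in Parental cells. Caco2 readings were 14.00, 13.81 and 14.02 in Withdrawal, 12.23, 12.16 and 11.86 in Resistant and 13.75, 13.89 and 13.90 in Parental cells. The Resistant arrays were the lowest in all lines, and the Withdrawal arrays overlapped the Parental ones in LIM1215 and Caco2 but lay above them in SW48. Resistant cells read 3.59-fold lower than Parental cells in LIM1215, at least 2.42-fold lower in SW48, where the Resistant mean was within the range of the negative controls, and 3.39-fold lower in Caco2. In SW48 the level after withdrawal was 1.89 above Parental (SE 0.26, adjusted p 6.93e-05).

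GXYLT2 codes for a xylosyltransferase that extends sugars on the EGF-like repeats of Notch receptors. In LIM1215 it read 7.61, 7.14 and 7.45 in Withdrawal, 7.10, 6.87 and 7.19 in Resistant and 9.89, 9.89 and 9.24 in Parental cells. In SW48 it read 9.28, 8.43 and 8.68 in Withdrawal, 6.12, 5.75 and 6.07 in Resistant and 7.97, 8.33 and 8.28 in Parental cells. In Caco2 it read 7.07, 8.05 and 7.81 in Withdrawal, 7.04, 6.57 and 5.09 in Resistant and 7.92, 8.07 and 7.98 in Parental cells. The LIM1215 Withdrawal arrays overlapped the Resistant ones, with both group means within the range of the negative controls, whereas in SW48 all Withdrawal arrays were above all Parental arrays. Resistant cells read at least 3.8-fold lower than Parental cells in LIM1215, at least 2.16-fold lower in SW48 and at least 1.08-fold lower in Caco2. The LIM1215 Withdrawal minus Parental difference was -2.27 (SE 0.34, adjusted p 5.26e-05) and -2.49 without Parental replicate 3.

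ETV5 codes for an ETS-family transcription factor that ERK signalling induces. LIM1215 readings were 11.63, 11.56 and 11.82 in Withdrawal, 6.55, 6.66 and 6.07 in Resistant and 7.66, 7.85 and 10.47 in Parental cells. SW48 readings were 13.40, 13.34 and 13.47 in Withdrawal, 11.61, 11.61 and 11.51 in Resistant and 13.27, 13.20 and 13.37 in Parental cells. Caco2 readings were 9.21, 9.41 and 9.31 in Withdrawal, 8.59, 8.24 and 8.15 in Resistant and 9.63, 9.79 and 9.90 in Parental cells. In LIM1215 the Withdrawal arrays were above every Parental array, replicate 3 included, in SW48 they overlapped the Parental arrays, and in Caco2 they lay below them. Resistant cells read at least 1.89-fold lower than Parental cells in LIM1215, 3.25-fold lower in SW48 and 2.73-fold lower in Caco2. Withdrawal minus Parental in LIM1215 was 3.01 (SE 0.41, adjusted p 1.94e-05), and 3.91 without Parental replicate 3.

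MATCAP2 codes for a microtubule-associated carboxypeptidase. In LIM1215 it read 10.67, 10.36 and 10.35 in Withdrawal, 9.44, 9.65 and 9.76 in Resistant and 10.68, 10.86 and 10.61 in Parental cells. SW48 readings were 9.59, 9.66 and 9.58 in Withdrawal, 8.78, 8.75 and 8.81 in Resistant and 9.37, 9.88 and 10.05 in Parental cells. In Caco2, where all states were within the range of the negative controls, it read 6.87, 6.34 and 6.62 in Withdrawal, 2.68, 2.61 and 3.07 in Resistant and 6.74, 7.47 and 7.49 in Parental cells. Withdrawal arrays overlapped Parental arrays in all 3 lines, and Resistant arrays were the lowest. Resistant cells read 2.15-fold lower than Parental cells in LIM1215 and 1.98-fold lower in SW48.

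SIPA1L2 codes for a protein that switches off the small GTPase RAP. In LIM1215 it read 8.26, 7.98 and 7.71 in Withdrawal, 7.07, 7.61 and 7.02 in Resistant and 8.60, 8.49 and 7.49 in Parental cells. In SW48 it read 9.68, 9.61 and 9.67 in Withdrawal, 7.61, 7.72 and 8.08 in Resistant and 9.55, 9.60 and 9.66 in Parental cells. In Caco2 it read 8.00, 8.12 and 7.69 in Withdrawal, 4.97, 3.91 and 5.38 in Resistant and 7.44, 7.64 and 6.88 in Parental cells. The Resistant arrays were apart from the Parental arrays in SW48 and Caco2 and overlapped Parental replicate 3 in LIM1215. Resistant cells read at least 1.36-fold lower than Parental cells in LIM1215 and 3.47-fold lower in SW48, and both states were near the negative controls in Caco2.

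**Figure D2:**
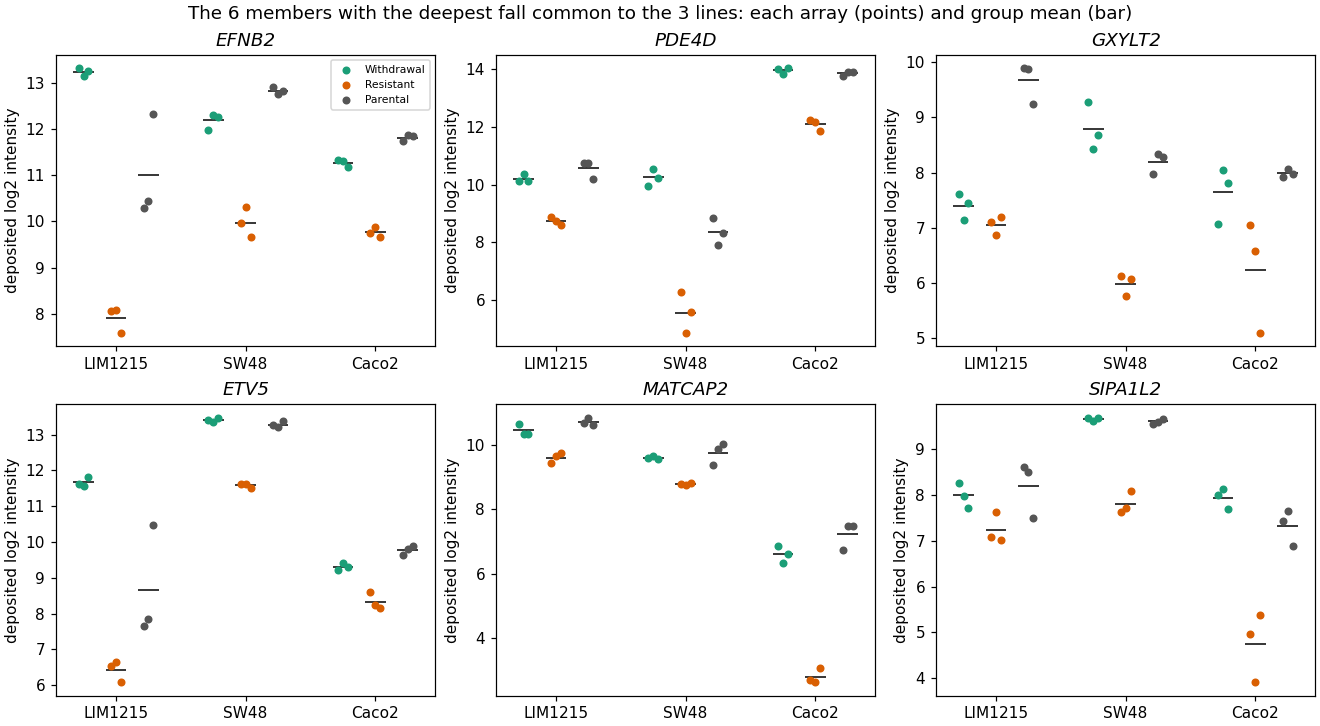
Deposited log2 intensity of the 6 members with the deepest common difference, for each line in the order Withdrawal, Resistant, Parental, with 1 point per array and a bar at the group mean of 3 arrays. Resistant arrays are lowest for each gene except where LIM1215 Withdrawal arrays of GXYLT2 reach down to them, and SIPA1L2 in LIM1215 where a Parental array does.

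After withdrawal, most members read higher than in Resistant cells. The moderated test of limma on all 27 arrays, with Benjamini-Hochberg adjustment over all 17687 genes and a call at an adjusted p under 0.05, called 54 of 71 members higher than in Resistant cells in LIM1215 (76.1%, against 13.6% of all genes), 54 in SW48 (76.1%, against 11.1%) and 48 in Caco2 (67.6%, against 12.1%). The median Withdrawal minus Resistant difference of the members was 1.08 in LIM1215, 0.84 in SW48 and 0.74 in Caco2, and over all genes it was 0.03, 0.01 and 0.01. The Resistant arrays took part in choosing the members for low values, so part of this difference follows from the choice. Higher readings than in Resistant cells were called in all 3 lines for 31 members, in 2 lines for 27 and in 1 line for 9. For CENPE, HOMER3, METAP1D and ZNF692 they were called in none. Shares of all genes called in several lines were not worked out, so these joint counts stand without a background. Among the 31, DAAM1, HK2, LMO4, PSPH, TUBE1, ZFAND5 and ZNF510 lost a call when an array was left out. ZNF510 lost its LIM1215 call and its Caco2 call in this way. A single member was called lower than in Resistant cells, PLD1 in Caco2, at -0.78 (SE 0.27, adjusted p 0.0401), and that call ended without Resistant replicate 1 (-0.64, adjusted p 0.159) or 3 (-0.81, adjusted p 0.0672) or Withdrawal replicate 1 (-0.81, adjusted p 0.0716), 2 (-0.66, adjusted p 0.144) or 3 (-0.85, adjusted p 0.055). In LIM1215 and SW48 limma called 0 members lower than in Resistant cells (14.4% and 11.1% of all genes were, and 12.5% in Caco2), and 1 in each line was lower at an unadjusted p under 0.05.

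Against Parental cells the lines differed. In LIM1215, 29 members were called higher after withdrawal (40.8%, against 9.89% of all genes) and 12 lower (16.9%, against 11.2%), with a median difference of 0.34. In SW48, 4 were called higher (5.63%, against 1.78%) and 3 lower (4.23%, against 2.3%), with a median of -0.08. In Caco2, 2 were called higher (2.82%, against 2.73%) and 11 lower (15.5%, against 2.54%), with a median of -0.23. All-gene medians of this difference lay between -0.02 and 0.00. All Withdrawal arrays lay above all Parental arrays for 33 members in LIM1215, 13 in SW48 and 7 in Caco2. They lay below them for 11, 22 and 27 members, and no share over all genes was worked out for this. The SE of a gene is pooled over the lines, so a missing call in SW48 or Caco2 also depends on the LIM1215 spread. The Parental arrays, too, took part in choosing the members. Among the 7520 genes of the same Parental level, 14.5% were called higher and 18.1% lower in LIM1215, 2.95% and 3.8% in SW48, and 3.12% and 3.31% in Caco2.

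For the 46 members that did not depend on LIM1215 Parental replicate 3, 11 were called higher and 11 lower in LIM1215, with a median of 0.12, which is 23.9% in each direction. Of the other 25 members, 18 were called higher (72.0%) and 1 lower (4.0%), but the array that separates these 25 from the 46 also enters the tested difference. Without that array in the fit, 31 of the 71 members were called higher and 12 lower, and 40 of the 41 calls made with it were made again in the same direction. The 12 lower calls in LIM1215 became 7 without Parental replicate 1 and 6 without Parental replicate 2. The 4 higher calls in SW48 became 1 without Parental replicate 1, Parental replicate 2 or Withdrawal replicate 1, and 2 without Withdrawal replicate 3. In Caco2 the 11 lower calls became 7 without Parental replicate 2 or Withdrawal replicate 2, 6 without Parental replicate 3 and 5 without Withdrawal replicate 3. The 2 higher calls there became 0 without Parental replicate 2 or 3 or any Withdrawal replicate, and 1 without Parental replicate 1, Resistant replicate 1 or Resistant replicate 3. Fitted on the arrays of their own line alone, the calls of CHAC1, DUSP6, PSPH, CENPE, METAP1D, SLC44A5, TXNRD1, ASAH2B and TMEM268 in LIM1215, of ARHGAP42 in SW48 and of ASAH2B, FKBP14, LAMB1 and PSMC3IP in Caco2 were not made (adjusted p 0.0503 to 0.216).

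**Figure D3:**
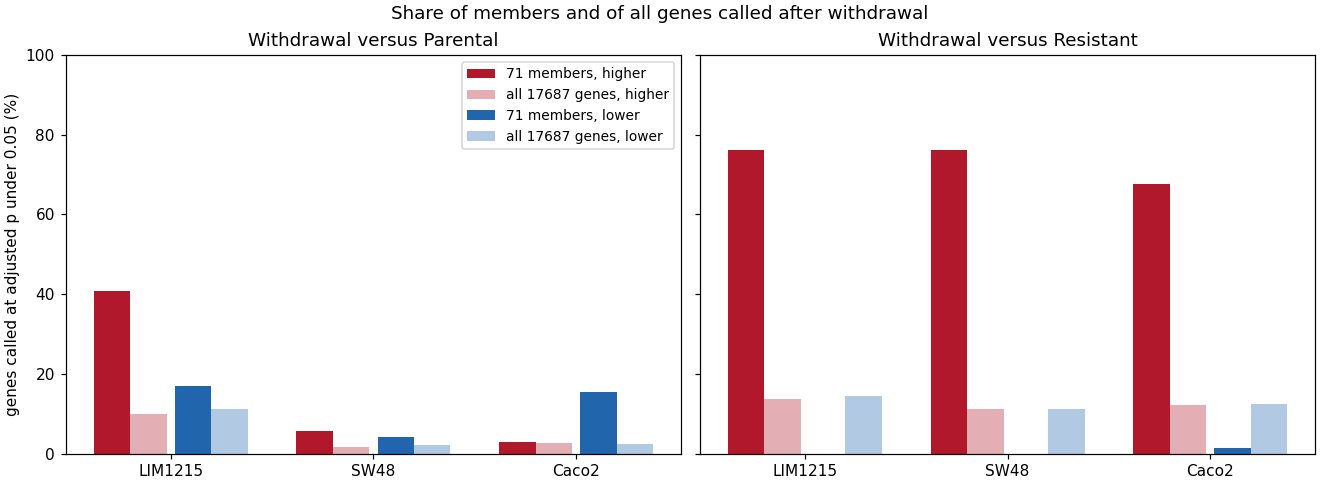
Percentage of the 71 members (dark bars) and of all 17687 genes (light bars) called higher (red) or lower (blue) in Withdrawal cells than in Parental cells (left) and than in Resistant cells (right), by line. The members' bars for higher than Resistant reach 76.1%, 76.1% and 67.6%, and the bars against Parental are tallest for higher in LIM1215 (40.8%).

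The share of the Parental to Resistant difference that was regained after withdrawal (Withdrawal minus Resistant, over Parental minus Resistant) had a median of 1.48 in LIM1215, 0.90 in SW48 and 0.80 in Caco2, where 1 is the Parental level. It was over 1 for 50 members in LIM1215, 31 in SW48 and 17 in Caco2. The share divides by the difference that the rule chose on, so it is a description, and it is unsteady where that difference is small. Resistant means were near the negative controls for 9 members in LIM1215, 5 in SW48 and 15 in Caco2. For the 46 members kept without LIM1215 Parental replicate 3, the LIM1215 median was 1.12 with that array and 1.20 without it, and the share was over 1 for 27 and 25 of them. The commonest outcome in SW48 (49 members) and Caco2 (44) was a reading called higher than in Resistant cells and not called from Parental cells, and in LIM1215 it was a reading called higher than both (29). Shares over all genes were not worked out for these combined outcomes. A difference that was not called is not shown to be absent.

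No member was called below Parental in all 3 lines after withdrawal. KITLG was called lower in LIM1215 and SW48, and LAMB1 in LIM1215 and Caco2. ARHGAP42 was the 1 member called above Parental in 2 lines, LIM1215 and SW48. Calls of opposite sign in different lines were made for ARMCX3, ASAH2B, CDR2, PLD1 and SLC44A5. Here, too, no share over all genes was worked out for calls joint to several lines.

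**Figure D4:**
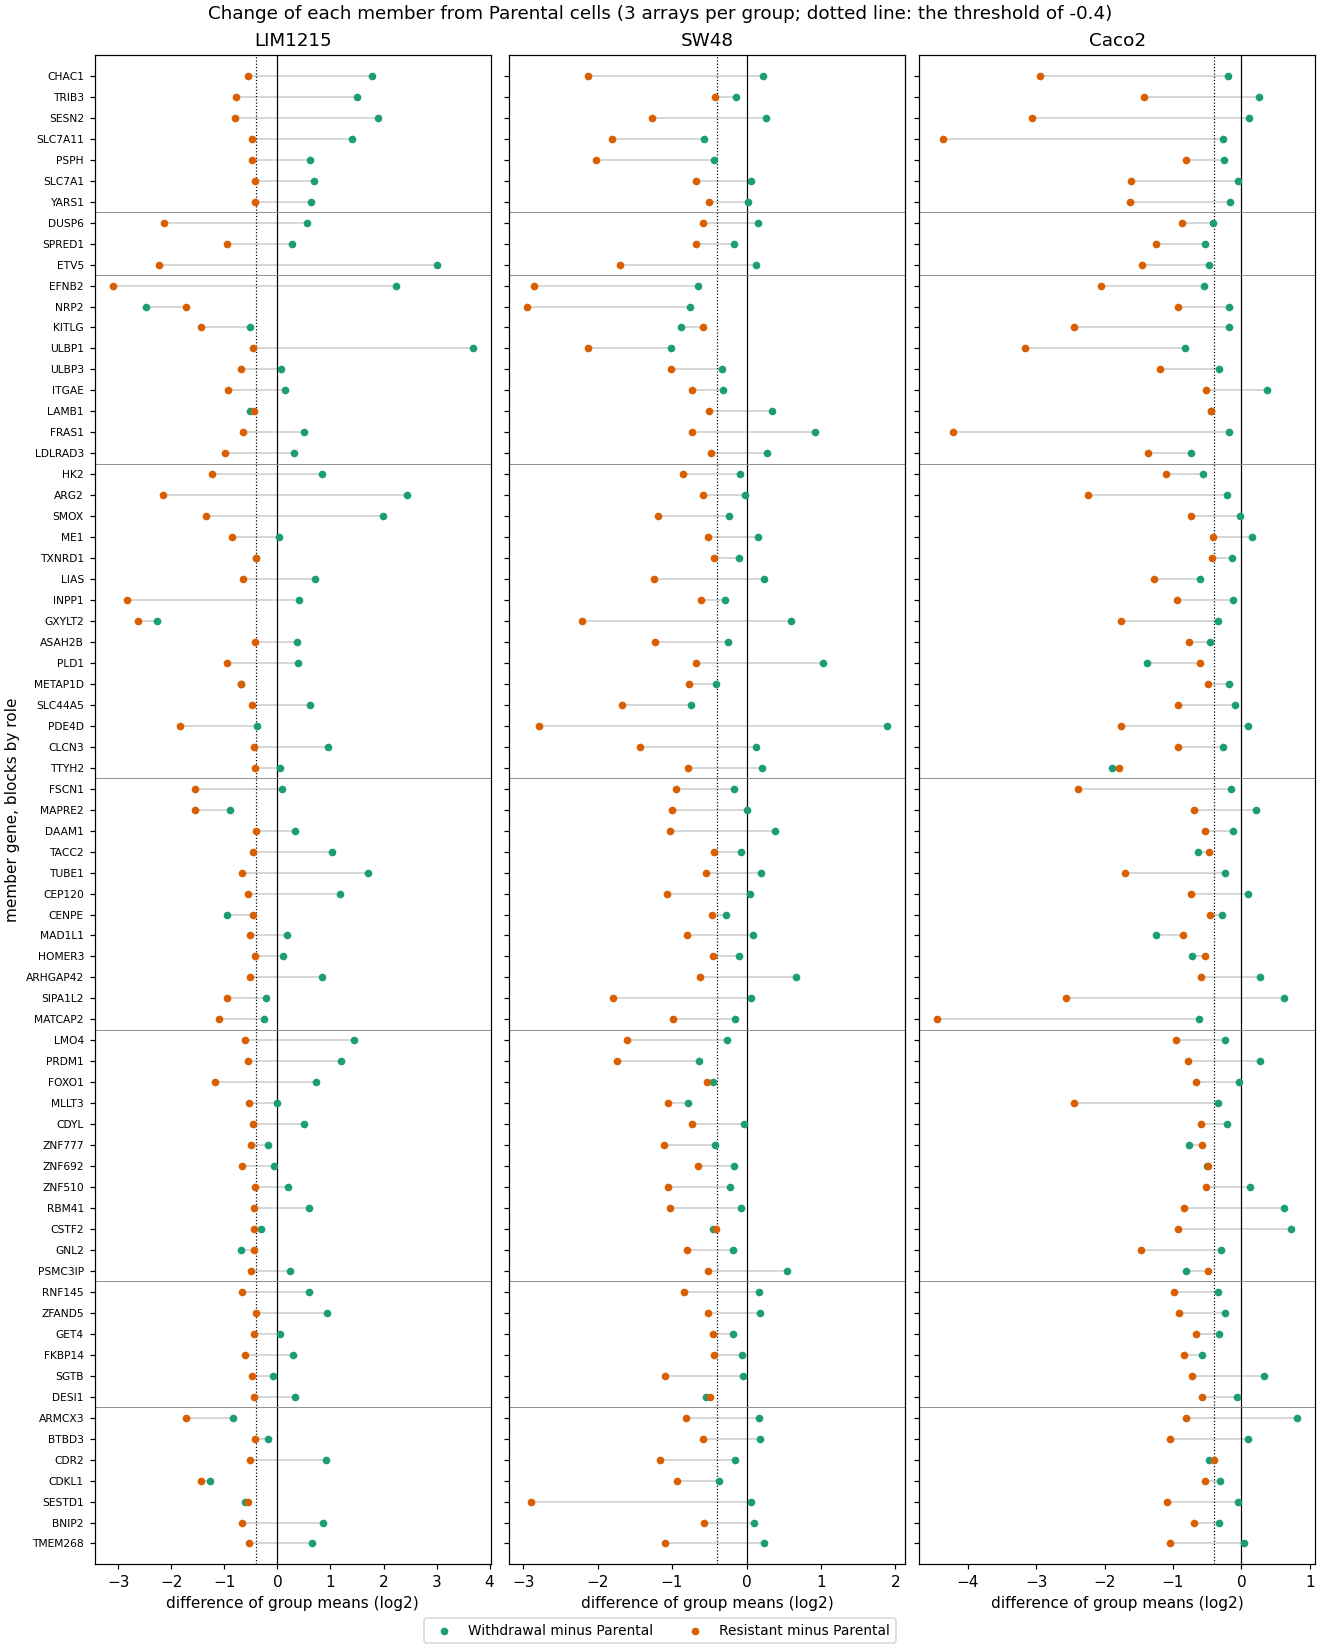
For each of the 71 members, in blocks by role, the difference of group means from Parental cells on the log2 scale, with Withdrawal minus Parental in green and Resistant minus Parental in orange, 3 arrays per group, and the threshold dotted. Green points lie right of 0 for 50 members in LIM1215 and mostly near or left of 0 in Caco2, where TTYH2, PLD1 and MAD1L1 remain at or left of the orange points.

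Amino acid supply and the ATF4 response made up 7 members. These were CHAC1, an enzyme that degrades glutathione, SLC7A11, the cystine and glutamate exchanger, SLC7A1, a carrier of arginine and lysine, PSPH, the last enzyme of serine synthesis, YARS1, which charges the tyrosine tRNA, SESN2, a leucine sensor that restrains mTORC1, and TRIB3, a pseudokinase induced by ATF4. All 7 were called higher after withdrawal than in Resistant cells in LIM1215 and in Caco2, and 6 in SW48, where TRIB3 was 0.28 higher and not called (adjusted p 0.526). The PSPH call above Resistant in Caco2 ended without Resistant replicate 2 (0.41, adjusted p 0.171) or Withdrawal replicate 1 (0.54, adjusted p 0.0762) or 2 (0.52, adjusted p 0.0928). Against Parental cells, all 7 were called higher in LIM1215 and limma called 0 in either direction in SW48 and Caco2. The SE of each gene is pooled over the lines, with LIM1215 Parental replicate 3 included. In SW48 all Withdrawal arrays were above all Parental arrays for CHAC1 and SESN2 and below them for SLC7A11 and PSPH. In Caco2 they were below them for SLC7A11, and the arrays of the other members overlapped. At an unadjusted p under 0.05, 2 were lower in SW48 and 0 in Caco2.

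CHAC1 is shown with the stretch of its promoter that holds the ATF4 composite element TGATGNAA, read on the opposite strand and in capitals, because the group is known from ATF4. The element was found in 4 of the 60 member promoters (6.67%) and in 2.52% of all 14250. Within the group, 4 members had a promoter in the table and 2 of these, CHAC1 and SLC7A1, held it, TRIB3 and SESN2 did not, and the other 2 matches were CDYL and TMEM268, outside the group.
CHAC1, chr15:40953221-40953319, plus strand: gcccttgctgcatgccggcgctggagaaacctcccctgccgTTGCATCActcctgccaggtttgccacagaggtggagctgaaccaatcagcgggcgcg

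In LIM1215 CHAC1 read 15.51, 15.49 and 15.43 in Withdrawal, 12.82, 13.05 and 13.53 in Resistant and 12.73, 12.74 and 15.59 in Parental cells. SW48 readings of CHAC1 were 15.99, 15.94 and 15.86 in Withdrawal, 13.44, 13.74 and 13.56 in Resistant and 15.69, 15.73 and 15.70 in Parental cells. Caco2 readings of CHAC1 were 12.28, 12.73 and 12.38 in Withdrawal, 9.99, 9.75 and 9.40 in Resistant and 12.76, 12.46 and 12.77 in Parental cells. In LIM1215, Parental replicates 1 and 2 sat just below the Resistant arrays and replicate 3 above the Withdrawal arrays, whereas in SW48 and Caco2 the 3 Parental arrays were close together and far above the Resistant ones. Withdrawal minus Parental in LIM1215 was 1.79 (SE 0.43, adjusted p 0.00472). It was 2.74 without Parental replicate 3 (adjusted p 2.19e-10), 1.31 without replicate 1 (adjusted p 0.0528) and 1.32 without replicate 2 (adjusted p 0.053).

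In Caco2 SLC7A11 read 13.90, 14.05 and 13.93 in Withdrawal, 9.83, 10.33 and 9.48 in Resistant and 14.39, 14.20 and 14.13 in Parental cells. SW48 readings of SLC7A11 were 14.32, 14.38 and 14.43 in Withdrawal, 13.13, 13.08 and 13.24 in Resistant and 14.88, 14.86 and 15.11 in Parental cells. LIM1215 readings of SLC7A11 were 14.79, 14.72 and 14.91 in Withdrawal, 12.81, 13.06 and 12.85 in Resistant and 12.85, 12.86 and 14.47 in Parental cells. LIM1215 Parental replicates 1 and 2 of SLC7A11 lay among the Resistant arrays. SESN2 followed the same order in LIM1215, with 13.86, 13.84 and 13.75 in Withdrawal, 10.95, 11.21 and 11.17 in Resistant and 11.07, 11.30 and 13.38 in Parental cells. The LIM1215 Resistant minus Parental difference without replicate 3 was 0.05 for SLC7A11, -0.08 for SESN2, -0.31 for TRIB3, -0.19 for PSPH, -0.21 for SLC7A1 and -0.26 for YARS1. None of these reached the threshold. Withdrawal minus Parental in LIM1215 was 1.95 without that array for SLC7A11, 2.63 for SESN2, 1.98 for TRIB3, 0.91 for PSPH, 0.89 for SLC7A1 and 0.79 for YARS1. The PSPH call (0.62, adjusted p 0.0195) ended without Parental replicate 1 (0.44, adjusted p 0.15), Parental replicate 2 (0.50, adjusted p 0.116) or Withdrawal replicate 3 (0.52, adjusted p 0.0935).

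**Figure D5:**
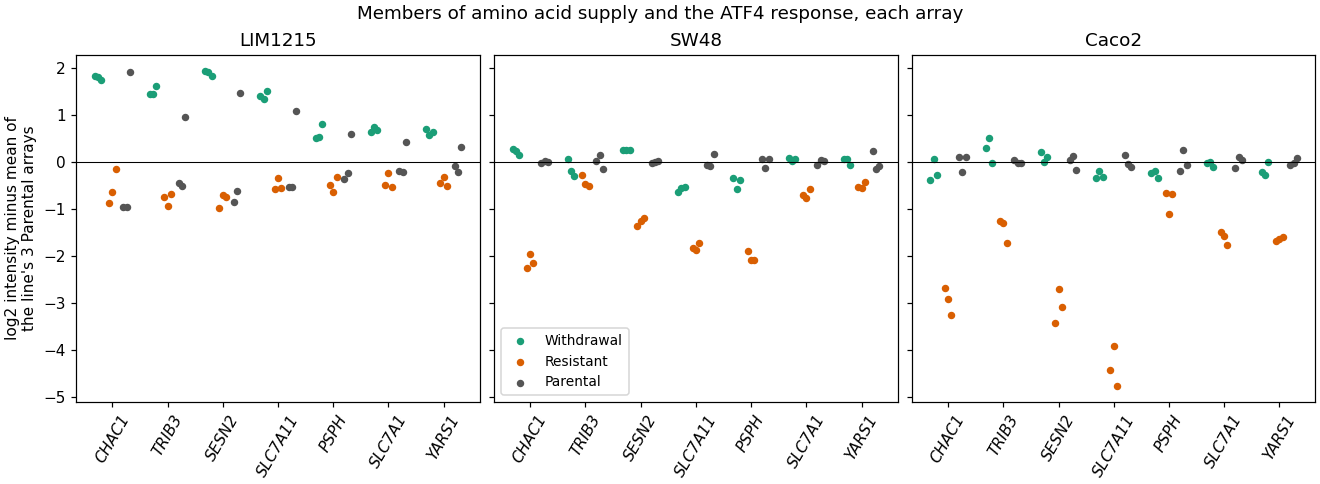
Log2 intensity of the 7 members of amino acid supply and the ATF4 response in each array, minus the mean of the line's 3 Parental arrays, in the order Withdrawal, Resistant, Parental. In SW48 and Caco2 the Resistant points lie below the Withdrawal and Parental points except for TRIB3 in SW48, where Withdrawal and Resistant points overlap. In LIM1215 a single Parental point per gene, replicate 3, sits above the other 2, from 0.47 above their mean for YARS1 to 2.85 for CHAC1.

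Other genes of the ATF4 response were also lower in Resistant cells of SW48 and Caco2. Of 14 measured genes of that list that are no members, 8 were called lower and 0 higher in Resistant than in Parental cells of SW48 (11.8% of all genes were called lower and 10.9% higher) and 12 lower and 1 higher in Caco2 (14.5% and 12.9%). The exception in Caco2 was ATF3, at 1.29 (adjusted p 0.0202). In LIM1215, 3 were called lower and 1 higher (5.39% and 5.42% of all genes), and without Parental replicate 3 it was 2 lower and 5 higher. After withdrawal, 11 of the 14 were called above Parental cells in LIM1215 (9.89% of all genes), among them DDIT3, the gene of the stress factor CHOP, at 3.70 (adjusted p 3.62e-05). In SW48 and Caco2 limma called 0, with 0 in SW48 and 2 higher and 1 lower in Caco2 at an unadjusted p under 0.05. Of 12 tRNA synthetase genes beside YARS1, limma called 3 lower in Resistant cells of SW48, 10 in Caco2 and 0 in LIM1215, where 2 were lower at an unadjusted p under 0.05. After withdrawal 9 of the 12 were called above Parental in LIM1215, where 9.89% of all genes were. Of 13 transporters beside SLC7A1 and SLC7A11, Resistant cells had 3 lower and 1 higher in LIM1215, 6 lower and 2 higher in SW48, and 7 lower and 1 higher in Caco2.

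ERK output was represented by DUSP6, the phosphatase that inactivates ERK, SPRED1, an inhibitor of RAS, and ETV5. In LIM1215 DUSP6 read 14.08, 13.99 and 14.12 in Withdrawal, 11.37, 11.32 and 11.40 in Resistant and 13.14, 13.10 and 14.26 in Parental cells. The Resistant arrays were far below both other states, and the Withdrawal arrays lay between Parental replicate 3 and the other Parental arrays. DUSP6 was lower in Resistant than in Parental cells by -0.59 in SW48 and -0.86 in Caco2 as a log2 difference, against -2.14 in LIM1215. SPRED1 differences were -0.95 in LIM1215, -0.68 in SW48 and -1.25 in Caco2. All 3 genes were called above Resistant cells after withdrawal in LIM1215 and SW48, and in Caco2 SPRED1 alone. The Caco2 Withdrawal arrays of ETV5 and DUSP6 were nonetheless above all Resistant arrays, with mean differences of 0.98 and 0.45. Their SE is pooled with the wide LIM1215 Parental spread. Against Parental cells, ETV5 and DUSP6 were called higher in LIM1215 and SPRED1 lower in Caco2. The DUSP6 call (0.56, adjusted p 0.0426) was 0.94 without Parental replicate 3 and ended without Parental replicate 1 (0.38, adjusted p 0.253) or 2 (0.36, adjusted p 0.274) and without Withdrawal replicate 1 (0.55, adjusted p 0.0983), 2 (0.60, adjusted p 0.0713) or 3 (0.53, adjusted p 0.109). The SPRED1 call in Caco2 (-0.53, adjusted p 0.0183) ended without Parental replicate 2 (-0.49, adjusted p 0.0796) or 3 (-0.50, adjusted p 0.0746), without Withdrawal replicate 2 (-0.44, adjusted p 0.122), and with the replicate number as a block (adjusted p 0.0526).

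The rest of the ERK output list did not go one way in the 3 lines. Of 15 measured genes that are no members, 9 were called lower and 0 higher in Resistant than in Parental cells of LIM1215, 1 lower and 4 higher in SW48, and 7 lower and 5 higher in Caco2. Over all genes the shares called lower and higher were 5.39% and 5.42% in LIM1215, 11.8% and 10.9% in SW48, and 14.5% and 12.9% in Caco2, so the SW48 count of lower genes was not above its share. DUSP4, the nuclear relative of DUSP6, was at -2.72 in LIM1215 (adjusted p 1.71e-09) and 0.90 in SW48 (adjusted p 0.00261). After withdrawal, 8 of the 15 were called above Parental cells in LIM1215 (9.89% of all genes) and 1 in Caco2 (2.73%). In SW48 limma called 0 higher, also at an unadjusted p under 0.05, and 1 lower.

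Surface and matrix proteins made up 9 members, EFNB2 among them. ULBP1 and ULBP3 code for ligands of NKG2D, the activating receptor of NK cells. ULBP1 read 12.24, 12.26 and 12.12 in LIM1215 Withdrawal, 7.71, 8.13 and 8.36 in Resistant and 7.51, 6.97 and 11.10 in Parental arrays. In SW48 it read 9.79, 9.69 and 9.38 in Withdrawal, 8.45, 8.34 and 8.73 in Resistant and 10.65, 10.58 and 10.66 in Parental arrays. In Caco2 it read 7.83, 7.64 and 7.36 in Withdrawal, 5.08, 5.14 and 5.60 in Resistant and 8.47, 8.49 and 8.34 in Parental arrays. The LIM1215 Withdrawal arrays were above all Parental arrays, while in SW48 and Caco2 they lay between the Resistant and the Parental arrays without overlap. In Caco2 the Withdrawal and Resistant means were within the range of the negative controls. Withdrawal minus Parental was 3.68 in LIM1215 (SE 0.57, adjusted p 8.72e-05), 4.97 without Parental replicate 3, and -1.01 in SW48 (adjusted p 0.431), whose SE is pooled with the wide LIM1215 Parental spread.

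ULBP3 differences between Resistant and Parental cells were -0.68, -1.02 and -1.19 in LIM1215, SW48 and Caco2, and its Withdrawal level was called above Resistant in all 3 lines and from Parental in none, with the Withdrawal and Resistant means of Caco2 within the range of the negative controls. Other NK-activating ligands were called in both directions. Of 15 measured genes that are no members, 5 were called lower and 3 higher in Resistant than in Parental cells of LIM1215, 2 lower and 4 higher in SW48, and 3 lower and 3 higher in Caco2. The shares of all genes called lower and higher were 5.39% and 5.42%, 11.8% and 10.9%, and 14.5% and 12.9% in these lines, and the lower counts in SW48 and Caco2 were near them. MICB, another NKG2D ligand gene, was 2.26 higher in LIM1215 (adjusted p 1.47e-08), 1.66 higher in SW48 (adjusted p 1.09e-06) and at -2.14 in Caco2 (adjusted p 1.31e-08).

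NRP2, a coreceptor for semaphorins and VEGF, had the lowest Withdrawal minus Parental difference of any member in deposited values. In LIM1215 it read 6.09, 5.72 and 6.29 in Withdrawal, 6.43, 6.81 and 7.11 in Resistant and 9.03, 8.87 and 7.63 in Parental cells. Both the Withdrawal and the Resistant mean were within the range of the negative controls, so the size of the difference, -2.48 (adjusted p 3.18e-06) and -2.92 without Parental replicate 3, is one of deposited values. KITLG, the ligand of the receptor KIT, read 13.34, 13.61 and 13.49 in SW48 Withdrawal, 13.73, 13.69 and 13.93 in Resistant and 14.51, 14.35 and 14.22 in Parental arrays. The Withdrawal arrays were the lowest of the 3 states, at -0.88 from Parental (SE 0.13, adjusted p 0.000197). In Caco2, by contrast, KITLG was 2.45 lower in Resistant than in Parental cells and Withdrawal cells were at -0.19 from Parental. Its LIM1215 call (-0.53, adjusted p 0.00567) was -0.66 without Parental replicate 3 and ended without Parental replicate 2 (-0.42, adjusted p 0.0522).

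FRAS1, a basement membrane protein, was at -4.22 in Resistant against Parental cells of Caco2, where its Resistant mean was near the negative controls, and at -0.64 in LIM1215 and -0.73 in SW48. Its Withdrawal level in SW48, 0.92 above Parental (adjusted p 0.0416), was a call that ended without Parental replicate 1 (0.89, adjusted p 0.127) or 2 (0.77, adjusted p 0.19) or Withdrawal replicate 1 (0.93, adjusted p 0.0936), 2 (0.97, adjusted p 0.0825) or 3 (0.87, adjusted p 0.132), and with the replicate number as a block (adjusted p 0.0787). LAMB1, a laminin chain, was at -0.06 from Resistant after withdrawal in LIM1215 and at 0.01 in Caco2, neither called, and was 0.85 above Resistant in SW48. Its calls below Parental were -0.51 in LIM1215 (adjusted p 0.00163, and -0.45 without Parental replicate 3) and -0.44 in Caco2 (adjusted p 0.0159), and the Caco2 one ended without Parental replicate 2 (-0.37, adjusted p 0.0991) or Withdrawal replicate 1 (-0.43, adjusted p 0.0603) or 3 (-0.43, adjusted p 0.0551). LDLRAD3, a membrane protein of the LDL receptor family, was at -0.73 from Parental in Caco2 after withdrawal (adjusted p 0.00218). ITGAE, the integrin alpha chain that binds E-cadherin, was near the negative controls in all states of Caco2.

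Metabolism and second messengers made up 15 members, with PDE4D and GXYLT2. ARG2, the mitochondrial arginase, read 13.25, 13.25 and 13.31 in LIM1215 Withdrawal, 8.62, 8.64 and 8.79 in Resistant and 10.61, 10.26 and 11.63 in Parental arrays. The 3 states did not overlap, and the Withdrawal level was 2.44 above Parental (SE 0.25, adjusted p 7.91e-07), or 2.83 without Parental replicate 3. In SW48 ARG2 was at -0.03 from Parental after withdrawal and in Caco2 at -0.21, neither called. Its promoter held a pair of cyclic AMP response elements (CRE, TGACGTCA), a motif found in 4 of the 60 member promoters (6.67%) and in 2.62% of all promoters. Both stretches are shown, with the element in capitals, since the gene had one of the largest differences after withdrawal. The other members that held it were CENPE, CLCN3 and MAPRE2. After withdrawal these were at -0.95, 0.95 and -0.90 from Parental in LIM1215, and at -1.48, 1.22 and -1.07 without Parental replicate 3. Whether the element bears on any of these levels was not tested.
ARG2, chr14:67619698-67619805, plus strand: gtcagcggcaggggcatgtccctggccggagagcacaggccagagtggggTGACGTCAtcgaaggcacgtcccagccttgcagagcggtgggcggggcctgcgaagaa
ARG2, chr14:67619806-67619913, plus strand: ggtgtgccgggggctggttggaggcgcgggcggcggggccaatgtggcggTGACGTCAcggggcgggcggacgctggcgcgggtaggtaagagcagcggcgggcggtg

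SMOX, which oxidises spermine, was 1.98 above Parental in LIM1215 Withdrawal cells (adjusted p 3.44e-07, and 2.15 without Parental replicate 3), with Resistant and Parental cells both near the negative controls. HK2, the hexokinase that starts glycolysis, was 0.83 above Parental in LIM1215 (adjusted p 0.0017, and 0.98 without replicate 3). CLCN3, an endosomal chloride and proton exchanger, was 0.95 above it (adjusted p 0.000101, and 1.22 without replicate 3). These 3 were called above Resistant cells in all 3 lines and from Parental in no line but LIM1215, although the HK2 call above Resistant in Caco2 ended without Resistant replicate 2 (0.51, adjusted p 0.0832) or 3 (0.39, adjusted p 0.16) or Withdrawal replicate 1 (0.49, adjusted p 0.0961) or 3 (0.53, adjusted p 0.0739). ME1, the cytosolic malic enzyme that makes NADPH, likewise returned above Resistant in all lines, and its Withdrawal minus Parental differences were 0.02, 0.16 and 0.16 in LIM1215, SW48 and Caco2, none called. INPP1, an inositol phosphatase, was the second deepest member in LIM1215 at -2.83 from Parental in Resistant cells and 0.41 in Withdrawal cells, which was not called.

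Other members of metabolism did not return in every line. TTYH2, a membrane protein of the tweety family, read 8.03, 8.43 and 8.64 in Caco2 Withdrawal, 8.18, 8.47 and 8.77 in Resistant and 10.29, 10.16 and 10.32 in Parental arrays. Withdrawal and Resistant arrays overlapped and both lay below all Parental arrays, and Withdrawal minus Parental was -1.89 (SE 0.21, adjusted p 3.64e-06). PLD1, the phospholipase that makes phosphatidic acid, read 6.74, 6.44 and 6.82 in Caco2 Withdrawal, 7.71, 7.24 and 7.37 in Resistant and 8.23, 7.79 and 8.13 in Parental arrays, so the Withdrawal arrays were the lowest (-1.38 from Parental, adjusted p 0.00263), with the Withdrawal and Resistant means within the range of the negative controls. In SW48 PLD1 read 8.58, 8.02 and 7.77 in Withdrawal, 6.18, 6.52 and 6.53 in Resistant and 7.20, 7.19 and 6.89 in Parental arrays, so there the Withdrawal arrays were the highest (1.03 from Parental, adjusted p 0.0316). That SW48 call ended without Parental replicate 1 (1.08, adjusted p 0.0681), 2 (1.08, adjusted p 0.0709) or 3 (0.93, adjusted p 0.115) and without Withdrawal replicate 1 (0.80, adjusted p 0.162) or 2 (1.08, adjusted p 0.0677).

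TXNRD1, the cytosolic thioredoxin reductase, and METAP1D, a mitochondrial methionine aminopeptidase, were not called from Resistant in LIM1215, with Withdrawal minus Resistant differences of 0.02 and 0.00. Their LIM1215 differences from Parental were -0.39 (adjusted p 0.00942) and -0.68 (adjusted p 0.00603), and -0.44 and -0.93 without Parental replicate 3. The first call ended without Parental replicate 1 (-0.31, adjusted p 0.0744) or Withdrawal replicate 2 (-0.35, adjusted p 0.0512), the second without Parental replicate 2 (-0.54, adjusted p 0.0552). SLC44A5, of the choline transporter family, was at 0.61 from Parental in LIM1215 (adjusted p 0.016) and -0.75 in SW48 (adjusted p 0.0163). Its LIM1215 difference was 0.66 without Parental replicate 3, and the call ended without Parental replicate 2 (0.54, adjusted p 0.0814) or Withdrawal replicate 1 (0.56, adjusted p 0.0603), and its SW48 call without Parental replicate 1 (-0.75, adjusted p 0.0506), Parental replicate 3 (-0.73, adjusted p 0.052) or Withdrawal replicate 1 (-0.63, adjusted p 0.0864). LIAS, which makes lipoic acid, was 0.72 above Parental in LIM1215 (adjusted p 0.0483), a call that ended without any 1 of the 3 Parental or 3 Withdrawal replicates or Resistant replicate 2 or 3 (0.59 to 0.79, adjusted p 0.0516 to 0.197). ASAH2B, a near copy of part of the neutral ceramidase gene, whose signal on the array is uncertain for that reason, was at 0.37 in LIM1215 (adjusted p 0.0225) and -0.46 in Caco2 (adjusted p 0.0182). The LIM1215 difference of ASAH2B was 0.40 without Parental replicate 3, and the call ended without Parental replicate 1 or 2 or Withdrawal replicate 1 or 2 (0.34 to 0.38, adjusted p 0.0626 to 0.0902), and its Caco2 call without Parental replicate 3 or Withdrawal replicate 1 or 3 (-0.44 to -0.38, adjusted p 0.0695 to 0.114).

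Wider lists of these pathways held genes called in both directions in Resistant cells. The shares over all genes were 5.39% lower and 5.42% higher in LIM1215, 11.8% and 10.9% in SW48, and 14.5% and 12.9% in Caco2. Of 16 hypoxia and glycolysis genes beside HK2, 2 were called lower and 1 higher in LIM1215, 4 lower and 5 higher in SW48, and 3 lower and 7 higher in Caco2. Of 11 NRF2 target genes beside TXNRD1 and SLC7A11, 2 were called lower and 2 higher in LIM1215, 1 and 1 in SW48, and 1 lower and 5 higher in Caco2. The NRF2 counts in SW48 were near the shares. In Caco2 the higher counts of both lists were above the share, while the members HK2, TXNRD1 and SLC7A11 were lower there. Of 9 fatty acid synthesis genes beside ME1, limma called 0 in LIM1215 (2 were lower at an unadjusted p under 0.05), 3 lower and 2 higher in SW48, and 2 lower and 2 higher in Caco2.

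Cytoskeleton, centrosome and mitosis held 12 members, MATCAP2 and SIPA1L2 included. FSCN1, the actin-bundling protein fascin, was at -1.55, -0.94 and -2.40 in Resistant against Parental cells of LIM1215, SW48 and Caco2, and at 0.09, -0.17 and -0.15 in Withdrawal against Parental cells, none of them called. Its Withdrawal level was called above Resistant in all 3 lines. DAAM1, a formin that builds actin filaments, and CEP120 and TUBE1, which serve centrioles, were called above Resistant in all lines as well. The DAAM1 call in Caco2 ended without Resistant replicate 3 (0.29, adjusted p 0.174) or Withdrawal replicate 1 (0.38, adjusted p 0.0924) or 2 (0.41, adjusted p 0.065), and the TUBE1 call in SW48 without Resistant replicate 2 (0.71, adjusted p 0.0525) or Withdrawal replicate 3 (0.70, adjusted p 0.0572). In LIM1215, TUBE1 was 1.71 above Parental (adjusted p 1.15e-05) and CEP120 1.19 (adjusted p 2.42e-05), or 2.16 and 1.46 without Parental replicate 3, and both left the set without it. TACC2, a centrosomal protein, was 1.04 above Parental there (adjusted p 0.00276), or 1.36 without that array.

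CENPE, the kinesin that moves chromosomes at the kinetochore, read 9.74, 9.34 and 9.62 in LIM1215 Withdrawal, 10.33, 10.14 and 9.72 in Resistant and 11.07, 11.02 and 9.46 in Parental arrays. Parental replicate 3 was among the Withdrawal arrays and the other Parental arrays were the highest, and Withdrawal minus Parental was -0.95 (adjusted p 0.013) and -1.48 without replicate 3. That call ended without Parental replicate 1 (-0.67, adjusted p 0.116), Parental replicate 2 (-0.70, adjusted p 0.11) or Withdrawal replicate 2 (-0.84, adjusted p 0.0619). MAPRE2, which binds microtubule ends, was at -0.90 from Parental in LIM1215 after withdrawal (adjusted p 0.000561) and -1.07 without Parental replicate 3. MAD1L1, of the spindle checkpoint, was at -1.25 in Caco2 (adjusted p 0.00422), with its Withdrawal mean near the negative controls. ARHGAP42 was 0.85 above Parental in LIM1215 (adjusted p 0.00118, and 0.96 without Parental replicate 3) and 0.66 in SW48 (adjusted p 0.0304). The SW48 call ended without Parental replicate 1 (0.63, adjusted p 0.103), Parental replicate 2 (0.63, adjusted p 0.106), Withdrawal replicate 1 (0.67, adjusted p 0.0735) or Withdrawal replicate 3 (0.55, adjusted p 0.145). HOMER3, a scaffold protein, was called from neither state in any line.

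Transcription, chromatin and RNA made up 12 members. LMO4, a LIM-domain adaptor of transcription complexes, and PRDM1, the repressor BLIMP1, were called above Resistant cells in all 3 lines, with the LMO4 call in Caco2 lost without Resistant replicate 1 (0.58, adjusted p 0.0927). In LIM1215 they were also above Parental, by 1.45 (adjusted p 5.37e-05) and 1.21 (adjusted p 0.000105), or 1.83 and 1.43 without Parental replicate 3. MLLT3, a subunit of the super elongation complex, read 9.21, 9.08 and 9.18 in SW48 Withdrawal, 8.79, 9.15 and 8.72 in Resistant and 9.98, 9.89 and 9.97 in Parental arrays. Withdrawal and Resistant arrays overlapped below the Parental ones, and Withdrawal minus Parental was -0.79 (SE 0.17, adjusted p 0.00654). In Caco2, where MLLT3 was at -2.45 in Resistant against Parental cells, Withdrawal cells were at -0.34 from Parental, which was not called.

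CSTF2, of the complex that cleaves pre-mRNA before polyadenylation, was 0.72 above Parental in Caco2 Withdrawal cells (adjusted p 0.0489), and RBM41, an RNA-binding protein, was at 0.63 without a call (adjusted p 0.16). The CSTF2 call ended without any 1 of the 3 Parental or 3 Withdrawal replicates or Resistant replicate 1 or 3 (0.64 to 0.83, adjusted p 0.0538 to 0.192). FOXO1, a forkhead factor restrained by AKT, was 0.73 above Parental in LIM1215 (adjusted p 0.024), or 0.97 without Parental replicate 3, a call that ended without Parental replicate 1 (0.59, adjusted p 0.131) or 2 (0.62, adjusted p 0.117) or Withdrawal replicate 1 (0.70, adjusted p 0.0696) or 3 (0.70, adjusted p 0.0677). The zinc finger gene ZNF777 and PSMC3IP, a factor of meiotic recombination, were called below Parental in Caco2 after withdrawal, at -0.76 (adjusted p 0.00698) and -0.81 (adjusted p 0.0329). For PSMC3IP both group means were within the range of the negative controls, so its difference is one of deposited values. The ZNF777 call ended without Withdrawal replicate 3 (-0.65, adjusted p 0.0554), and the PSMC3IP call without Parental replicate 1 or 3 or Withdrawal replicate 2 or 3 (-0.85 to -0.63, adjusted p 0.0697 to 0.204). GNL2, a nucleolar GTPase of ribosome assembly, was at -0.69 in LIM1215 (adjusted p 0.0257), or -0.92 without Parental replicate 3, a call that ended without Parental replicate 1 or 2 or Withdrawal replicate 2 or 3 (-0.69 to -0.53, adjusted p 0.0595 to 0.158). CDYL, a chromodomain corepressor, and the zinc finger genes ZNF510 and ZNF692 were called from Parental in no line.

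Protein turnover, folding and targeting held 6 members. ZFAND5, which binds ubiquitin and the proteasome, was 0.93 above Parental in LIM1215 (adjusted p 0.00085, and 1.24 without Parental replicate 3) and was called above Resistant in all lines, in Caco2 not without Resistant replicate 2 (0.53, adjusted p 0.0611). RNF145, a ubiquitin ligase of the endoplasmic reticulum, GET4, which hands over tail-anchored membrane proteins, SGTB, a cochaperone, and DESI1, a SUMO peptidase, were called from Parental in no line. FKBP14, a prolyl isomerase of the endoplasmic reticulum, was at -0.58 from Parental in Caco2 after withdrawal (adjusted p 0.0404), a call that ended without any 1 of the 3 Parental or 3 Withdrawal replicates (-0.65 to -0.52, adjusted p 0.0583 to 0.151).

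A further 7 members have other or less described roles. ARMCX3, of the mitochondrial outer membrane, was at -0.84 from Parental in LIM1215 (adjusted p 0.0105, and -0.98 without Parental replicate 3) and 0.82 in Caco2 (adjusted p 0.0368), and the Caco2 call ended with any Withdrawal replicate or Parental replicate 2 or 3 left out (0.72 to 0.85, adjusted p 0.0788 to 0.15). Its LIM1215 call ended without Parental replicate 1 (-0.75, adjusted p 0.0585) or 2 (-0.78, adjusted p 0.0514). SESTD1 averaged 7.19 in SW48 Withdrawal, 4.24 in Resistant and 7.13 in Parental cells. The Resistant readings were within the range of the negative controls and the Parental mean little above it, so the size of that difference was not measured, and Withdrawal and Parental arrays overlapped. In LIM1215 SESTD1 was at -0.61 from Parental after withdrawal (adjusted p 0.0312) and -0.72 without Parental replicate 3, a call that ended without Parental replicate 1 or 2 or Withdrawal replicate 2 or 3 (-0.65 to -0.48, adjusted p 0.0552 to 0.168). CDKL1, a kinase, was near the negative controls in all states of LIM1215, where its Withdrawal level was called below Parental (-1.26, adjusted p 6.62e-05, and -1.36 without Parental replicate 3). CDR2 was 0.91 above Parental in LIM1215 (adjusted p 1.75e-05, and 1.01 without Parental replicate 3) and at -0.47 in Caco2 (adjusted p 0.0233), where the call ended without any 1 Parental or Withdrawal replicate (-0.49 to -0.46, adjusted p 0.0559 to 0.0801). BNIP2 was above Parental in LIM1215 by 0.86 (adjusted p 0.000661) and TMEM268 by 0.65 (adjusted p 0.00309), or 0.97 and 0.87 without Parental replicate 3. The TMEM268 call was not made on the arrays of LIM1215 alone (adjusted p 0.0677), and BTBD3 was called from Parental in no line.

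The change from Parental to Withdrawal cells itself differed between lines for many members. A contrast of the contrasts was called for 32 members between LIM1215 and SW48 (13.3% of all genes were called), with LIM1215 higher in 25 and lower in 7 (6.59% and 6.73% of all genes). Between LIM1215 and Caco2 it was called for 38 members (13.4% of all genes), with LIM1215 higher in 32 and lower in 6 (6.61% and 6.76%). Between SW48 and Caco2 it was called for 9 members (5.31% of all genes), with SW48 higher in 7 and lower in 2 (2.46% and 2.85%). For the 46 members that did not depend on LIM1215 Parental replicate 3 the counts were 16, 21 and 7. The 3 members with the widest range over the lines were ULBP1, ETV5 and EFNB2. Their LIM1215 differences exceeded those of SW48 by 4.69, 2.88 and 2.88, and 5.98, 3.78 and 3.53 without LIM1215 Parental replicate 3. The ULBP1 values rest in part on LIM1215 Parental readings close to the negative controls.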

How the data were processed

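Total RNA (250 ng per sample) from 27 samples was turned into biotin-labelled cDNA with an Affymetrix WT PLUS kit and hybridised, per the labels' protocols. The values are the deposited normalized intensities, read here as log2 from their range. What software and normalization the authors used is not given in the sources at hand. No level was therefore set against another line's, and precision is limited by how many arrays there are.

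Of 24351 probe sets, 2903 were controls, 612 of them negative, and 17709 of the other 21448 carried 1 gene symbol (3739 had none). The brightest probe set was kept for 20 genes with several, which left 17687 genes. A group mean under the mean 95th percentile of the negative controls was called near the negative controls, and a fold against such a group is a lower bound.

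A mean per group was fitted on all 27 arrays with limma 3.58.1 (R 4.3.3, data.table package 1.17.8), with a two-sided moderated test and Benjamini-Hochberg adjustment over the 17687 genes, and the script was tested on simulated data. Tables and figures used Python 3.11.15 with pandas 2.3.3, numpy 2.4.6 and matplotlib 3.10.9. The members, gene lists and tests were chosen with earlier results of these data known. Values in every array were to be given for the 6 members with the deepest common difference. To be named were the list members, the 3 lowest and 3 highest Withdrawal minus Parental differences per line, the 3 widest ranges over lines and the 3 genes on each side of the threshold. Other members were named by role, and further array values were chosen after they were seen. Alternatives were leaving out each replicate, quantile normalization, each line alone, a replicate block, an intensity trend and a filter on dim genes. Same-numbered replicates did not deviate together over 27 pairs of groups (r -0.041 to 0.075). This cannot show how the samples were handled, and the main fit did not pair them by number.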

Additional observations from a re-analysis of the deposited data

Results flagged for a closer look

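The Withdrawal minus Parental difference was set against itself between lines, and it differed for 32 members between LIM1215 and SW48, for 38 between LIM1215 and Caco2 and for 9 between SW48 and Caco2 (limma contrasts of contrasts, adjusted over all genes). Without LIM1215 Parental replicate 3 these counts were 39, 44 and 11.

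ULBP1, the NKG2D ligand gene, was flagged by a LIM1215 difference that exceeded that of SW48 by 4.69 (SE 0.81, adjusted p 0.000535) and that of Caco2 by 4.50 (adjusted p 0.000714), while SW48 minus Caco2 was -0.19 (adjusted p 0.953). ETV5, the ETS factor, had LIM1215 above SW48 by 2.88 (SE 0.58, adjusted p 0.00193) and above Caco2 by 3.47 (adjusted p 0.000332), with SW48 minus Caco2 at 0.60 (adjusted p 0.681). EFNB2, the ephrin, had LIM1215 above SW48 by 2.88 (SE 0.44, adjusted p 0.00017) and above Caco2 by 2.78 (adjusted p 0.000219), with SW48 minus Caco2 at -0.10 (adjusted p 0.953). All 6 LIM1215 differences of these genes were larger without LIM1215 Parental replicate 3, at 5.98 and 5.79 for ULBP1, 3.78 and 4.38 for ETV5, and 3.53 and 3.43 for EFNB2.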

How the results depend on the processing

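The precision is set by 3 arrays per group and, in LIM1215, by Parental replicate 3. A threshold of -0.5 left 37 members, and the number chosen lay between 65 and 86 when 1 array was left out. Which genes were chosen also changed. Without LIM1215 Resistant replicate 3, 56 of the 66 genes chosen were members, and without LIM1215 Parental replicate 1 it was 63 of 86. With the arrays centred on their median it was 61 of 72. With the stricter threshold set aside, 19 members were kept in every alternative of the rule. With 1 array of the same line left out, members above Parental after withdrawal numbered 22 to 31 in LIM1215, 1 to 4 in SW48 and 0 to 2 in Caco2. Members below it numbered 6 to 12, 2 to 3 and 5 to 12. Their median differences ran from 0.34 to 0.40, from -0.116 to -0.0208 and from -0.24 to -0.20, and members above Resistant numbered 50 to 55, 50 to 54 and 44 to 48. For the 46 members kept without LIM1215 Parental replicate 3, an alternative added after seeing the data, LIM1215 had 11 above Parental, a median of 0.12 and 32 above Resistant, SW48 a median of -0.0887 and 34, and Caco2 29, and the line differences were 16 and 21. The arrays of SW48 alone gave 5 members below Parental, and quantile normalization a SW48 median of -0.0582 and 1 member above Parental in Caco2. With the replicate number as a block, Caco2 also had 1 member above Parental, and the block kept the other counts within 1.5 times. Of 2982 values of single members under an alternative, 2836 kept their direction and side of the threshold, 24 gained a call, 122 lost one and none reversed. For each line the arrays left out here were its own. The ranges and values of SW48 and Caco2 therefore do not cover the fit without LIM1215 Parental replicate 3. Of 61 called differences, 33 held under every one of these alternatives.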
